A study of Mus musculus with 2 samples.

Results

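The Hox cluster genes encode homeodomain transcription factors. All 39 genes named Hox followed by a cluster letter and a number were taken from the 27998 genes of the deposited mouse count table, without their antisense and host transcripts. They lie in 4 clusters: 11 genes in cluster a, 10 in b, 9 in c and 9 in d. Within a cluster the genes stand in the order in which they are used along the body axis, with low numbers used from the hindbrain backwards and high numbers towards the tail, and genes of the same number in different clusters are paralogs. In the trunk, Hox genes are known for patterning tissues of mesodermal and neural origin. In the mouse pancreas, Hox6 genes of the mesenchyme are known to be needed for endocrine differentiation in the neighbouring epithelium. The levels given here describe which of these genes were detected in which cells of the embryonic pancreas.

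The study profiled single cells of 1 control and 1 knockout-titled pancreas, each from 1 C57BL/6 mouse embryo of embryonic day 13.5. The series gives the genotype of the second embryo as Dpy30∆P. Dpy30 is a core subunit of the COMPASS complexes that methylate histone H3. Neither the deleted part of the gene nor the driver of the deletion is named in the labels. Live cells of the dissected organ were sorted by exclusion of a dead-cell dye. In the epithelium, Dpy30 stood at 221 CPM (UMIs per 1000000 UMIs of the same cells) in control cells and at 261 CPM in the others, so these 3' tags gave no check of the label, and the second library is called knockout-labelled throughout. Transcripts were counted as unique molecular identifiers (UMIs), 1 per captured molecule. Because 3' tags are counted once per molecule, CPM needs no division by gene length. With 1 library per group no test was possible. Intervals are exact, at 95%, and cover counting error alone, so they say nothing about the spread between embryos.

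There were 3900 control barcodes with 32702089 UMIs and 3044 knockout-labelled barcodes with 28033433 UMIs, and 22 barcode sequences occurred in both. After filters, 3866 and 3003 cells were kept. Classes were gated on raw marker UMIs: epithelium on Epcam and Cdh1, mesothelium (the surface layer of the organ) on Upk3b, Upk1b, Lrrn4 and Msln, endothelium on Pecam1, Cdh5 and Cldn5, neural cells on 4 neural crest and nerve genes that include Sox10 and Foxd3, and mesenchyme on at least 20 UMIs of the collagen genes Col1a1, Col1a2 and Col3a1. These gates gave 642 and 438 epithelial, 191 and 170 mesothelial, 27 and 35 endothelial, 32 and 42 neural, and 419 and 269 mesenchymal cells in the control and the knockout-labelled library. As 62.8% and 66.8% of kept cells passed no gate, a wider mesenchyme of 2445 and 1980 cells, with at least 5 collagen UMIs, is given beside the first. Markers that the gates did not use stood highest in their own class for 6 of 6 epithelial, 4 of 4 endothelial, 3 of 4 mesothelial and 5 of 6 mesenchymal genes in both libraries, and for 4 and 5 of 5 neural genes. Haemoglobin UMIs, which mesenchymal cells should lack, summed to 172 CPM in control and 361 CPM in knockout-labelled mesenchyme.

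The 4 clusters lie on GRCm38 chromosome 6 (cluster a, minus strand), 11 (b), 15 (c) and 2 (d, all plus strand). They span 105, 174, 116 and 96.8 kb. RefSeq promoters (GRCm38.p6) were found for 22 of the 39 members, in 24 windows of 250 bases ending at the base before the transcription start. The windows of 4 genes that the results below turn on are shown, 5′ to 3′ on the strand of the gene: Hoxa5, the leading gene of mesenchyme together with Hoxb5; Hoxa2, low in mesothelium; Hoxb8, which differed most between the libraries in mesothelium; and Hoxd4, a leading gene of neural cells. Capitals mark matches on either strand to TATAAA (the TATA box), CCAAT (bound by NF-Y), TGATTNAT (a joint Hox and Pbx motif) and TGACAG (the Meis motif), and neighbouring matches may touch.
Hoxa5: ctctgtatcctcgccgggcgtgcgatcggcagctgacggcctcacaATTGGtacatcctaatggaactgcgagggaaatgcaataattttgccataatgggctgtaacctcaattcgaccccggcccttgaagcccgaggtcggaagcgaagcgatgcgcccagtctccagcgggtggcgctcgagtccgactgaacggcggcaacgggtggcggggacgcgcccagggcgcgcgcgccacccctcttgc
Hoxa2: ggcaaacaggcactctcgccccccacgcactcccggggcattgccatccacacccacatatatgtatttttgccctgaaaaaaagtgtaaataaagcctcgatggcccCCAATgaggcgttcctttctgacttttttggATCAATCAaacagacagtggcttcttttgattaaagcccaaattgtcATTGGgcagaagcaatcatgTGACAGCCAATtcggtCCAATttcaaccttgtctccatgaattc
Hoxb8: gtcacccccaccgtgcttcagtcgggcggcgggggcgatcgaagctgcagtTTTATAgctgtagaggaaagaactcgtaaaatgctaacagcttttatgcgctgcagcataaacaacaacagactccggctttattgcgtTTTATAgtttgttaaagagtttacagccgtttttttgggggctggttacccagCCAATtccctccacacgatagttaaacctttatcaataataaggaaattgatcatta
Hoxd4: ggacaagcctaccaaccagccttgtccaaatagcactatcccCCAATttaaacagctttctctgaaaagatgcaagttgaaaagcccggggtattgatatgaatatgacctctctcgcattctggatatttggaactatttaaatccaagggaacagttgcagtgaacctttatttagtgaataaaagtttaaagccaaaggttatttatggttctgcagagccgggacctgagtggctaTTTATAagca
They lie at chr6:52204588-52204837 (minus), chr6:52164832-52165081 (minus), chr11:96281655-96281904 (plus) and chr2:74721728-74721977 (plus). CCAAT was found in 58.3% of the 24 Hox windows and in 33.8% of 32851 mouse promoter windows of that length, TATAAA in 16.7% and 12.4%, TGATTNAT in 8.33% and 2.82%, and TGACAG in 8.33% and 15.9%. The DR5 retinoic acid response motif was found in 0 of the 24 windows and in 0.00913% of all. Of the 4 windows shown, Hoxa2 alone held the Hox and Pbx motif and the Meis motif. The median number of CG pairs was 12.5 in Hox windows and 6 in all. These are matches of letters and not sites of binding.

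Detection ended along the clusters. Of the 39 genes, 20 had at least 20 UMIs over all barcodes of both libraries, 6 had 1 to 19, and 13 had none. The 13 were Hoxa10, Hoxa11, Hoxa13, Hoxb13, Hoxc8, Hoxc9, Hoxc10, Hoxc11, Hoxc12, Hoxc13, Hoxd11, Hoxd12 and Hoxd13. Among the 12 genes of paralog groups 10 to 13, which are known for limb, hindgut and urogenital patterning, 11 were at 0 and 1 UMI in all was found, of Hoxd10 in a control endothelial cell. In wider mesenchyme, a count of 0 allows at most 0.183 CPM in the control library and 0.194 CPM in the other, taking 3 UMIs as the limit. The last gene with at least 20 UMIs was Hoxa7 in cluster a, Hoxb8 in b, Hoxc6 in c and Hoxd8 in d.

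**Figure D1:**
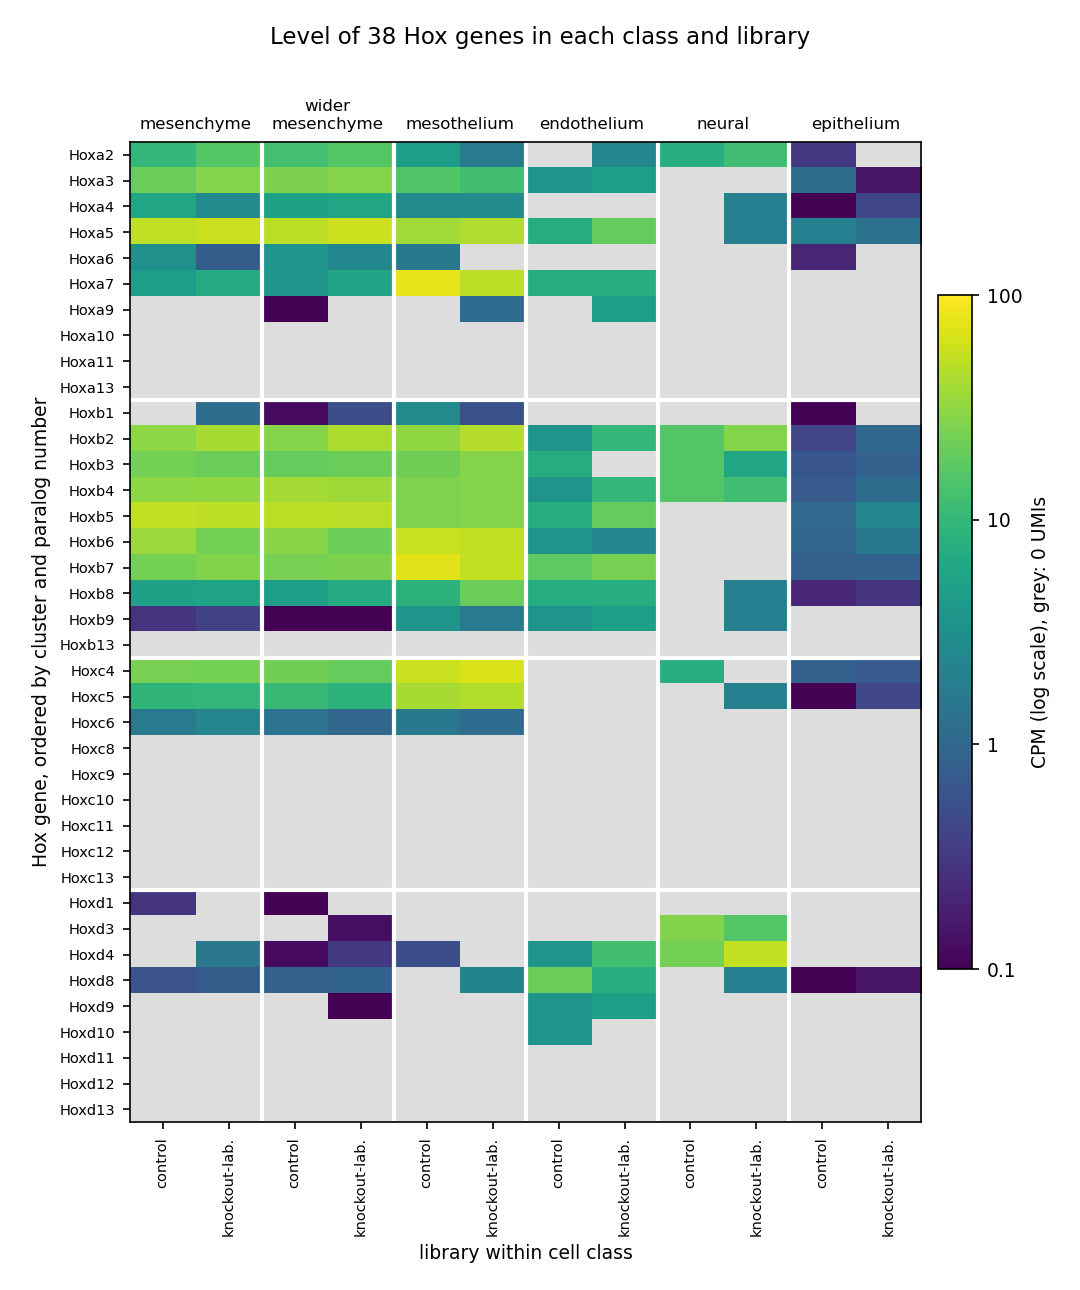
Level of each of 38 Hox genes (lines, ordered by cluster and number) in each gated class and library (columns), as CPM on a log colour scale from 0.1 to 100, with values outside it drawn at its ends and grey for 0 UMIs. Mesenchyme and mesothelium carry genes 2 to 8 of clusters a to c, neural cells carry genes 2 to 4 with Hoxd3 and Hoxd4, and numbers 10 to 13 are grey except for Hoxd10 in control endothelium.

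Summed over all 39 genes, Hox UMIs were most abundant in mesothelium and mesenchyme, lower in endothelium and neural cells, and lowest of these classes in epithelium. Mesothelium held 497 CPM (interval 466 to 530) in control and 493 (461 to 527) in knockout-labelled cells. Mesenchyme held 337 (318 to 357) and 354 (331 to 378), and wider mesenchyme 335 (326 to 344) and 357 (347 to 366). Endothelium held 107 (72.2 to 153) and 149.6 (114 to 192), from 30 and 61 Hox UMIs. Neural cells held 113 (75.7 to 162) and 139 (108 to 176), from 29 and 70. The endothelial and neural intervals overlap in both libraries, whereas mesothelium stood above mesenchyme and mesenchyme above both small classes in each.

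**Figure D2:**
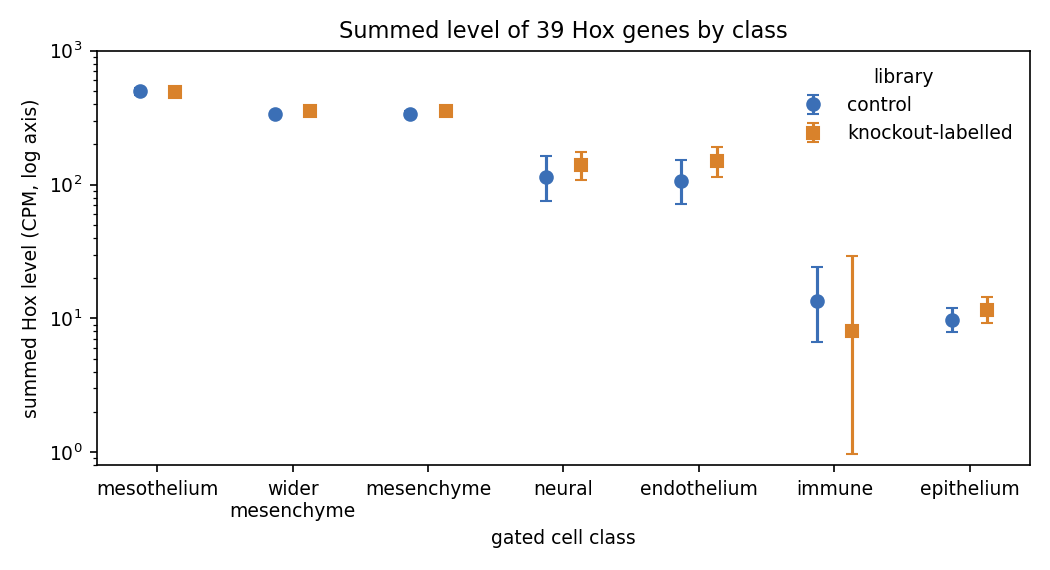
Summed level of the 39 Hox genes in CPM (log axis) by gated class, with circles for the control and squares for the knockout-labelled library and bars for 95% counting intervals (where no bar shows it is shorter than the symbol). Mesothelium and both mesenchyme gates lie between 335 and 497 CPM, neural cells and endothelium between 107 and 149.6, and immune cells and epithelium between 8.05 and 13.4.

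Epithelium held 9.76 CPM of Hox UMIs (7.88 to 12) in control and 11.6 (9.18 to 14.4) in knockout-labelled cells, with 93 and 80 UMIs. Immune cells, given for comparison, held 13.4 and 8.05 CPM from 11 and 2 UMIs, and erythroid barcodes 12.7 and 29.7. After thinning each cell to 3000 UMIs, 2.19% and 2.05% of epithelial cells had a Hox UMI, against 2.33% and 4.55% of immune cells and 0 of 31 control (up to 11.2%) and 11.1% of knockout-labelled erythroid barcodes. Without thinning the epithelial shares were 8.41% and 9.13% at a median of 13415 and 15179.5 UMIs per cell, and the immune shares 9.30% and 9.09% at 8812 and 10914. The intervals of the immune level were wide (6.71 to 24.0 and 0.975 to 29.1 CPM) and contained the epithelial level. The leading epithelial genes by mean CPM of the 2 libraries were also among the higher genes of mesenchyme, though not in the same order. Hoxb5 had 10 and 16 UMIs, Hoxa5 19 and 9, Hoxb6 9 and 11, Hoxb4 7 and 8, and Hoxb7 8 and 6. Hoxa3 had 11 in the control library, behind Hoxa5 alone, and 1 in the other.

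The Hox UMIs of the epithelium went with collagen UMIs in the same cells. In the 417 control and 318 knockout-labelled epithelial cells with no collagen UMI, Hox UMIs stood at 3.88 and 4.02 CPM. In the 24 and 10 epithelial cells with 5 to 19 collagen UMIs they stood at 115 and 116 CPM, and these few cells held 59 of the 93 and 28 of the 80 Hox UMIs. Cells with 1 to 4 collagen UMIs had 3.60 and 17.0 CPM, the latter from 33 UMIs in 11 cells. The part of free RNA or of doublets in these values was not tested.
Within the epithelium, the intervals of 4 subsets gated by lineage genes overlapped in each library. Cells with at least 2 UMIs of the endocrine progenitor factor Neurog3 held 9.49 and 9.80 CPM. Cells with at least 10 UMIs of Cpa1, a tip progenitor and acinar enzyme gene, held 10.2 and 8.47. Cells with at least 2 UMIs of the endocrine granule gene Chga held 8.83 CPM from 4 Hox UMIs in the control library and 0 of 109835 UMIs in the other, which allows up to 27.3 CPM by the limit of 3 UMIs, and the remaining cells 9.49 and 14.6.

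Most mesenchymal and mesothelial cells carried Hox transcripts. At 3000 UMIs per cell, 64.4% (59.6 to 69.0) of control and 63.9% (57.9 to 69.7) of knockout-labelled mesenchymal cells had at least 1 Hox UMI. In mesothelium the shares were 75.3% (68.5 to 81.2) and 72.9% (65.6 to 79.5). Without thinning they were 89.7% and 91.4% in mesenchyme and 95.8% and 97.6% in mesothelium, with a median of 2 different Hox genes per mesenchymal cell in both libraries and of 3 and 4 per mesothelial cell. Thinned endothelial shares were 48.1% and 28.6% and neural shares 28.1% and 35.7%, with wide intervals.

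In mesenchyme, Hox transcripts came mainly from clusters a and b and from paralog groups 2 to 7. Hoxa5, known for lung and skeletal patterning, stood at 52.0 CPM in control and 57.8 in knockout-labelled mesenchyme. Hoxb5 stood at 52.3 and 50.8. With Hoxc5, at 9.06 and 9.31 CPM, the group 5 paralogs gave 33.7% and 33.3% of the mesenchymal Hox UMIs.
Next came 7 genes at 21.3 to 40.0 CPM. Hoxb2, a hindbrain patterning gene, stood at 30.7 and 40.0, Hoxb4, known from blood stem cells, at 30.7 and 31.4, and Hoxb6 at 35.7 and 23.7. Hoxb7 stood at 23.7 and 26.8, and Hoxc4 at 24.0 and 23.7. Hoxa3, known for thymus and parathyroid formation, stood at 21.3 and 27.9, and Hoxb3 at 23.4 and 21.3. Hoxa2, known for patterning the hindbrain and the second pharyngeal arch, stood at 9.65 and 16.3 CPM, and Hoxa7 at 4.68 and 6.99. Both libraries gave nearly the same order, with a Spearman rho of 0.941 across the 39 genes, which describes genes of the same 2 libraries and counts many zeros as ties.

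Hox6 genes were unequal: beside Hoxb6, Hoxa6 had 11 and 2 UMIs in mesenchyme (3.22 and 0.776 CPM) and Hoxc6 had 6 in each library (1.75 and 2.33 CPM). Cluster d was nearly absent. It gave 3 of 1153 and 6 of 912 Hox UMIs, and Hoxd8 was its highest member in wider mesenchyme at 0.854 and 0.905 CPM.

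Of the Hox genes with at least 20 UMIs over mesenchyme and epithelium of a library, 9 of 13 in the control and 10 of 11 in the knockout-labelled library were at least 4-fold higher in mesenchyme. Fold limits and log2 differences are on the log2(CPM + 5) scale throughout, which understates changes of low genes, and ratio intervals are of plain CPM. Of all genes, 3.35% and 3.38% were. No Hox gene reached 20 UMIs in epithelium, where the highest was Hoxa5 with 19 in the control library. All Hox genes counted thus passed the minimum through mesenchyme, the class where they were high, and nothing is read from these counts. The summed difference was 4.53 on the log2 scale in the control and 4.44 in the knockout-labelled library.

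Within wider mesenchyme the summed level differed with some marker genes, with intervals apart in both libraries for Isl1 and Barx1. Cells with a UMI of Isl1, a factor of the mesenchyme around the early pancreas, held 366 CPM (346 to 387) and 396 (377 to 415), against 326 (316 to 336) and 342 (331 to 353) in the rest. Hoxa7 followed this split in both libraries, with 8.02 CPM (5.33 to 11.6) and 11 (8.05 to 14.6) in Isl1-positive cells and 2.63 (1.82 to 3.68) and 3.67 (2.63 to 4.98) in the rest. Cells with Barx1, a gene of stomach mesenchyme, held 396 CPM (368 to 426) and 405 (377 to 435), against 327 (318 to 336) and 350.3 (340 to 360) in the rest. Hoxb5 stood at 69.5 (58.0 to 82.6) and 64.7 (53.7 to 77.4) in cells with Barx1, against 47.7 (44.3 to 51.4) and 47.0 (43.4 to 50.8). Cells with Nkx2-5 or Tlx1, genes of spleen mesenchyme, held 321 and 308 CPM against 336 and 363, so the intervals were separate in the knockout-labelled library alone. Cells with at least 3 UMIs of the matrix gene Lum held 354 and 359, against 332 and 357.

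Mesothelium used the same part of the clusters but with more weight on paralog group 7 and on cluster c. Hoxa7 stood at 80.6 CPM (68.3 to 94.4) in control and 50.9 (41.0 to 62.5) in knockout-labelled mesothelium, against 4.68 (2.67 to 7.60) and 6.99 (4.14 to 11) in mesenchyme. On the log2 scale it was 3.14 and 2.22 higher. Hoxb7 stood at 74.2 and 53.1 CPM against 23.7 and 26.8 (log2 1.47 and 0.87). Hoxc4 stood at 56.9 and 68.2 against 24.0 and 23.7 (1.09 and 1.35), and Hoxc5 at 40.5 and 44.7 against 9.06 and 9.31 (1.70 and 1.80).
These 4 of the 13 Hox genes compared in both libraries were at least 1.5-fold higher in mesothelium in both, against 7.71% of all genes, and their intervals in the 2 classes did not overlap in either library. Against wider mesenchyme 5 of 16 were higher, against 8.15% of all genes, and the fifth was Hoxb6 at 55.3 and 52.0 CPM against 29.1 and 21.7. Paralog group 7 alone gave 31.1% and 21.1% of the mesothelial Hox UMIs and 8.41% and 9.54% of the mesenchymal ones. Cluster c gave 19.9% and 23.1% against 10.3% and 9.98%.

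Hoxa2 and Hoxb5 were lower in mesothelium. Hoxa2 stood at 4.74 and 1.68 CPM in mesothelium, from 9 and 3 UMIs, against 9.65 and 16.3 in mesenchyme (log2 -0.59 and -1.67). Hoxb5 stood at 26.3 and 28.5 against 52.3 and 50.8 (log2 -0.87 and -0.74). These 2 of 13 were at least 1.5-fold lower in both libraries, against 7.46% of all genes, and 2 of 16 against wider mesenchyme, where 6.40% of all genes were. Hoxa2 reached 20 UMIs through mesenchyme alone, and Hoxa7 through mesothelium alone. For Hoxa2 the intervals of the 2 classes overlapped in the control library and not in the other. Hoxa3 was lower in both as well, at 15.3 and 12.3 CPM against 21.3 and 27.9, but passed 1.5-fold in the knockout-labelled library alone. Hoxb2, Hoxb3 and Hoxb4 differed by at most 0.35 on the log2 scale between the classes in either library.
The mesothelial gate allowed collagen UMIs, which summed to 1277 and 1309 CPM there and to 3509 and 2745 in mesenchyme. The last 500 exonic bases of Hoxa7 lie wholly over the antisense transcript Hoxaas3 in the GENCODE annotation, and the labels do not say whether counting used strand. Hoxaas3 stood at 8.42 and 7.83 CPM in mesothelium and at 12.3 and 14.4 in mesenchyme, and its part in the Hoxa7 values was not tested. The 3' ends of Hoxa3, Hoxb2 and Hoxb3 lie over antisense transcripts too, as do 51% of these bases in Hoxa4 and 4.2% in Hoxd3.

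**Figure D3:**
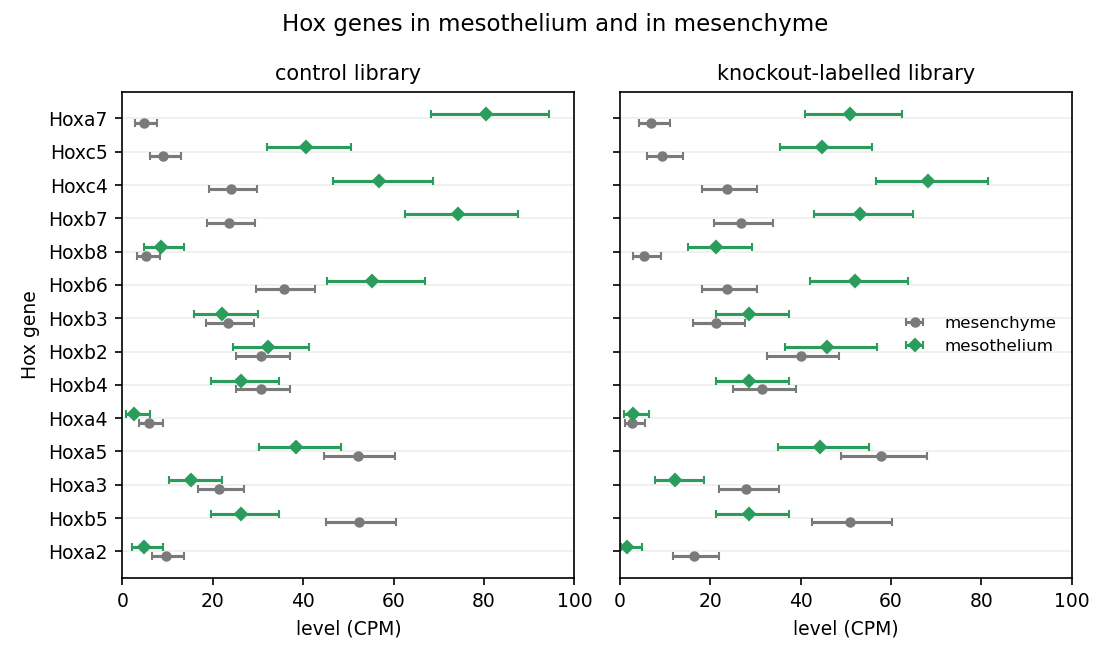
Level in CPM of the 14 Hox genes with at least 20 UMIs over mesenchyme and mesothelium of a library, with grey circles for mesenchyme, green diamonds for mesothelium and bars for 95% counting intervals, 1 panel per library. Hoxa7, Hoxc5, Hoxc4 and Hoxb7 lie to the right in mesothelium in both panels (Hoxa7 at 80.6 and 50.9 CPM), and Hoxb5 and Hoxa2 to the left.

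Neural cells showed another pattern, with most Hox UMIs from clusters b and d and from low numbers. Hoxd4 stood at 23.4 CPM (8.59 to 50.9) and 53.6 (35.3 to 78.0), from 6 and 27 UMIs, and Hoxd3 at 27.3 (11 to 56.2) and 15.9 (6.86 to 31.3), from 7 and 8. The same genes had 2 and 5 UMIs (Hoxd4) and 0 and 2 (Hoxd3) in all of wider mesenchyme, or 0.122 and 0.323 CPM for Hoxd4. Hoxb2 stood at 15.6 and 27.8 CPM, Hoxb4 at 15.6 and 11.9, Hoxb3 at 15.6 and 5.96, and Hoxa2 at 7.80 and 11.9. Of the last 500 exonic bases of Hoxd4, 4.4% also lie in a Hoxd3 transcript, so a part of these UMIs may be uncertain between them.
Paralog groups 5 to 13 gave 0 of 29 neural Hox UMIs in the control library, an upper bound of 11.9%, and 5 of 70 (7.14%, 2.36 to 15.9) in the other. In wider mesenchyme they gave 53.6% and 50.5%. Hoxb5, a gene known for enteric nerve development, was at 0 UMIs in neural cells of both libraries, which allows up to 11.7 and 5.96 CPM by the same limit of 3 UMIs, below its 50.2 and 49.1 in wider mesenchyme. Hoxa3, Hoxb6 and Hoxb7 were at 0 as well, and Hoxa5 had 0 and 1 UMI.

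Endothelium, the lining of vessels, had the largest share from high numbers among the gated classes. Hoxb7 stood at 17.8 CPM (5.79 to 41.6) and 24.5 (11.8 to 45.1), and Hoxd8 at 21.4 (7.86 to 46.6) and 7.36 (1.52 to 21.5). Hoxa5 and Hoxb5 each stood at 7.14 and 19.6, and Hoxd4 at 3.57 and 12.3, from 1 and 5 UMIs. Paralog groups 9 to 13 gave 3 of 30 (10.0%, 2.11 to 26.5) and 6 of 61 Hox UMIs (9.84%, 3.70 to 20.2), through Hoxa9, Hoxb9, Hoxd9 and Hoxd10. In wider mesenchyme they gave 2 of 5488 and 2 of 5520. Cluster c was not detected, with 0 of 30 and 0 of 61 UMIs and upper bounds of 11.6% and 5.87%. Cluster d gave 30.0% (14.7 to 49.4) and 16.4% (8.15 to 28.1). These values rest on 27 and 35 cells.

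**Figure D4:**
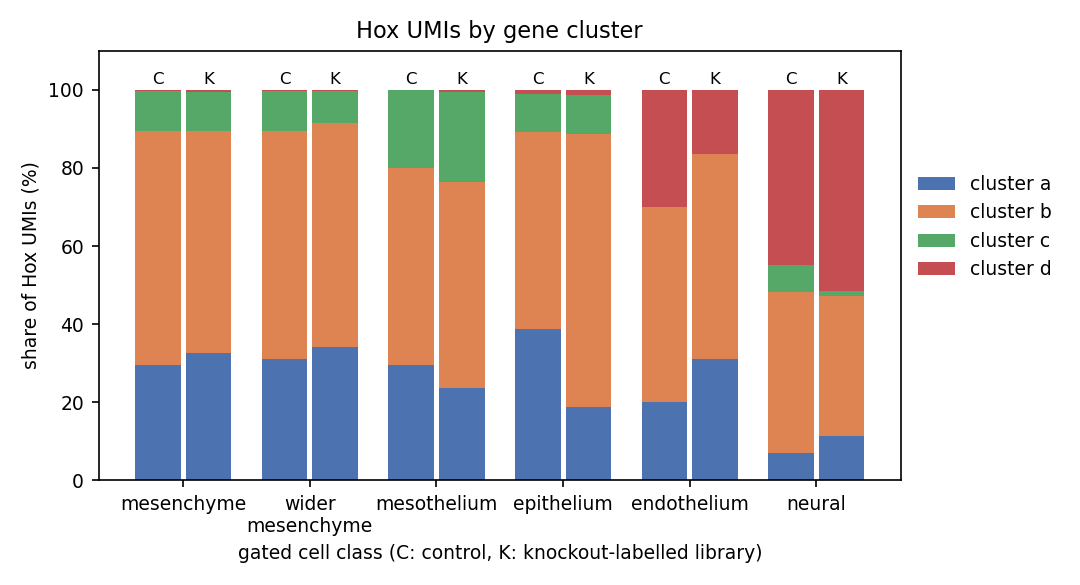
Share of Hox UMIs (percent) from each of the 4 gene clusters, stacked to 100%, by gated class, with C for the control and K for the knockout-labelled library. Cluster d gives under 1% in mesenchyme and mesothelium, 30.0% and 16.4% in endothelium and 44.8% and 51.4% in neural cells, and cluster c is largest in mesothelium.

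Between the libraries, the summed Hox level in mesenchyme differed by less than its counting error. It went from 337 CPM in the control to 354 CPM in the knockout-labelled library, a log2 difference of 0.07 with a ratio of 0.962 to 1.15. Of the 14 Hox genes with at least 20 UMIs, 0 were past 1.5-fold, against 4.78% of all 10246 genes so tested, a share at which few or none of 14 would be counted. The count was 1 or 2 with higher gates, another total, means of single cells, thinning or a pseudocount of 1. Their median log2 difference was 0.03 and that of all genes -0.02. The largest differences were Hoxa2, at 9.65 and 16.3 CPM (log2 0.54, ratio 1.05 to 2.75), and Hoxb6, at 35.7 and 23.7 CPM (log2 -0.50, ratio 0.480 to 0.910). Hoxa4 had 20 and 7 UMIs (5.85 and 2.72 CPM, log2 -0.49, ratio 0.166 to 1.14).
The next highest were Hoxb2 (log2 0.33), Hoxa3 (0.32), Hoxa7 (0.31), Hoxb7 (0.15) and Hoxa5 (0.14), and the next lowest Hoxb3 (-0.11), Hoxb5 (-0.04), Hoxc4 (-0.01) and Hoxb8 (0.02). Hoxc5 and Hoxb4 lay between them at 0.03 each. All but Hoxa2 and Hoxb6 had a ratio interval that contained 1.

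In wider mesenchyme, with 5488 and 5520 Hox UMIs against 1153 and 912, 0 of 18 were past 1.5-fold, against 1.32% of all genes. Hoxb2 stood at 28.2 CPM (25.7 to 30.9) in control and 42.4 (39.2 to 45.8) in knockout-labelled cells, with intervals apart (log2 0.52, ratio 1.33 to 1.70). Hoxb6 stood at 29.1 (26.5 to 31.8) and 21.7 (19.4 to 24.1), also apart (log2 -0.35, ratio 0.645 to 0.858). Hoxa2 was closer than in the collagen-rich cells, at 12.7 and 16.2 CPM (log2 0.26), and Hoxa4 at 5.18 and 5.88 turned to the other side (log2 0.10). The summed level was 335 and 357 CPM, a ratio of 1.03 to 1.11. Collagen UMIs of these cells went from 2066 to 1645 CPM, so that Hox UMIs per 100 collagen UMIs went from 16.2 to 21.7, and their part in the Hox values was not tested.

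In mesothelium the sum was level, at 497 and 493 CPM (log2 -0.01, ratio 0.904 to 1.09), and 2 of 12 genes were past 1.5-fold, 1 higher and 1 lower. Beside the shares of all genes given next, so small a count is not read as a result about Hox genes. Hoxb8, at 8.42 CPM (4.82 to 13.7) and 21.3 (15.0 to 29.2), was higher in the knockout-labelled library (log2 0.97, ratio 1.37 to 4.85), and 3.91% of all genes were higher by this rule. Hoxa7, at 80.6 and 50.9 CPM, was lower (log2 -0.61, ratio 0.482 to 0.824), and 4.76% of all genes were lower. Hoxb2 and Hoxb7 followed without passing. Hoxb2 was higher, at 32.1 and 45.9 CPM (log2 0.45, ratio 1.01 to 2.02). Hoxb7 was lower, at 74.2 and 53.1 CPM (log2 -0.45, ratio 0.546 to 0.935). Hoxb6, the clearest decrease among mesenchymal values, stood at 55.3 and 52.0 CPM in mesothelium (log2 -0.08). Whether the difference of a gene between libraries itself differed between the classes was not tested.
In epithelium 0 of 3 genes with enough UMIs were past 1.5-fold, against 2.23% of all genes. All 3 lay so far below the 5 CPM added on the log2 scale that even a fall to 0 could not pass. A rise would have had to be large, so nothing is read from this count. The epithelial sum was 9.76 and 11.6 CPM (ratio 0.869 to 1.62). The summed ratio was 0.888 to 2.24 in endothelium and 0.787 to 1.97 in neural cells, which had too few cells for single genes.

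**Figure D5:**
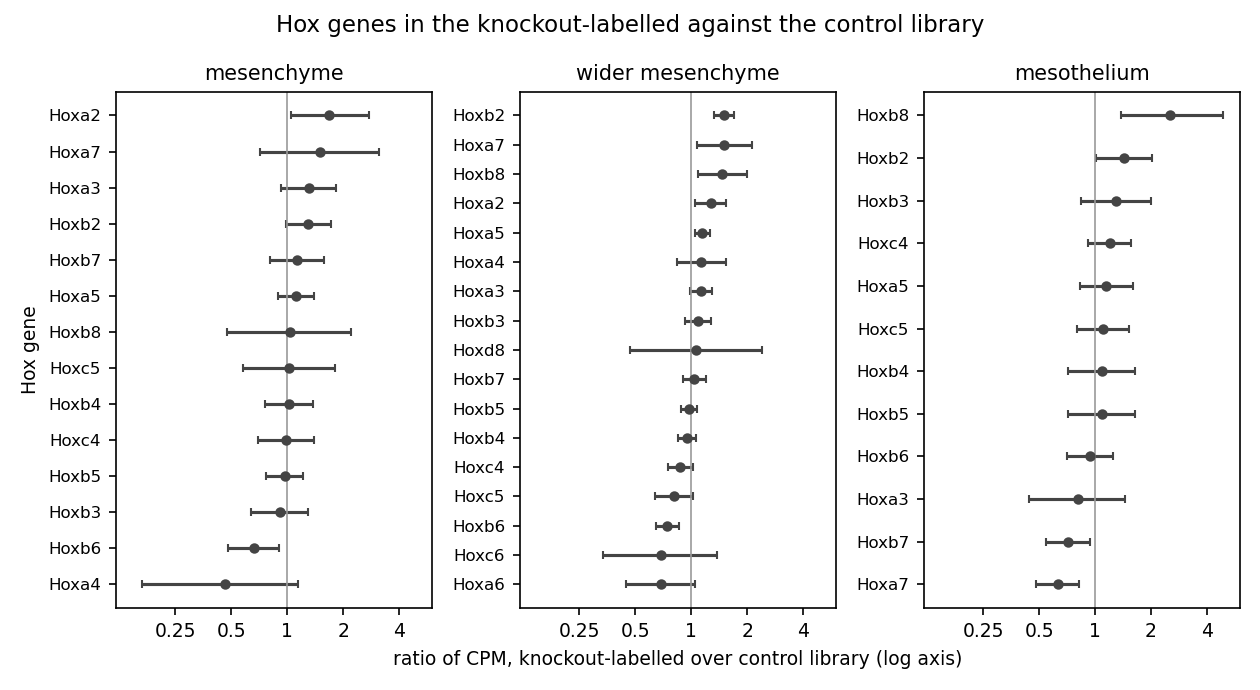
Ratio of CPM in the knockout-labelled over the control library (log axis) for Hox genes with at least 20 UMIs in mesenchyme (14), wider mesenchyme (17 of the 18) and mesothelium (12), with bars for the 95% counting interval of the ratio and a line at 1. Hoxb6 lies left of the line in both mesenchyme panels, Hoxa7 left and Hoxb8 right of it in mesothelium, and most other bars cross it.

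Hox proteins bind DNA together with the TALE homeodomain cofactors Pbx, Meis and Pknox, and Meis2 was detected in every class. It stood at 514 and 506 CPM in mesenchyme, 597 and 638 in mesothelium, 206 and 225 in epithelium, and 27.3 and 9.93 in neural cells. Between the libraries 0 of 8 cofactors with enough UMIs were past 1.5-fold in mesenchyme, where 4.78% of all genes were. In mesothelium 2 of 8 were higher, against 3.91% of all genes: Pbx3 at 31.1 and 57.6 CPM and Meis3 at 7.37 and 15.1.
Among Hox antisense and host transcripts, 8 of 12 names were matched in the files. Hotairm1, a transcript of cluster a, stood at 47.7 and 56.7 CPM in mesenchyme and at 45.3 and 80.0 in mesothelium, where it was the 1 of 3 past 1.5-fold, against 3.91% of all genes higher by that rule. Hoxb5os stood at 21.6 and 14.7 in mesenchyme. Hottip and Hotair, which lie in the high-numbered ends of clusters a and c, were at 0 UMIs in every class, as were the Hox genes around them. Of the ParaHox and Cdx genes, relatives outside the clusters, Pdx1 stood at 117 and 127 CPM in epithelium, Cdx1 and Cdx2 had 2 UMIs each in control epithelium, and Gsx1, Gsx2 and Cdx4 were at 0.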

How the data were processed

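Single cells of 1 control and 1 knockout-titled mouse pancreas were profiled with 10x 3' v2 chemistry, per the labels' protocols. The deposited matrices hold raw UMI counts per gene and barcode. The submitters' processing notes name Cell Ranger, Seurat 2 and Seurat 3, and GRCm38 (mm10), without roles, and other steps are not stated there.

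Barcodes with at least 500 genes, at least 1000 UMIs, at most 10% mitochondrial and at most 50% haemoglobin UMIs were kept. Gates needed at least 3 marker UMIs (mesenchyme 20) and at most 1 UMI of each other list. Classes other than mesenchyme and mesothelium also needed fewer than 20 collagen UMIs. Cells passing several gates were left out and no doublet caller was run. Class counts were summed and given as CPM. Folds used log2(CPM + 5) for genes with at least 20 UMIs over the groups compared, past 1.5-fold or 4-fold. Poisson, binomial and conditional ratio intervals were exact at 95%. Thinning drew 3000 UMIs per cell.

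All 39 members entered every sum and count, and some genes are not reported here by name. Named in full were the 12 highest in mesenchyme, the 5 highest in each other class, the 6 highest and 6 lowest library ratios in mesenchyme and every member past 1.5-fold in mesothelium or epithelium. Members, lists and gates were chosen with earlier results of these data known. The wider mesenchyme (5 collagen UMIs) was added after seeing that most cells passed no gate. Alternatives changed the cell filter, gates, total, scaling, pseudocount, UMI minimum and thinning. The planned printing of protein sequences was not done. Promoters came from RefSeq (GRCm38.p6) and positions from GENCODE on GRCm38, which need not be the authors' annotation. Folds and intervals were tested on simulated counts drawn from the Poisson model that the intervals assume. That simulation does not cover clustering of UMIs within cells. Python 3.11.15, numpy 2.4.6, scipy 1.17.1, pandas 2.3.3 and matplotlib 3.10.9 were used.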

Additional observations from a re-analysis of the deposited data

Results flagged for a closer look

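Cells outside the gated classes carried more Hox UMIs than immune cells, which held 13.4 CPM in the control and 8.05 CPM in the knockout-labelled library. The 2427 control and 2007 knockout-labelled cells that passed no gate held 318 CPM (309 to 327) and 351 CPM (342 to 361), and collagen UMIs in them summed to 1485 and 1306 CPM. Of these cells, 2026 and 1711 belong to the wider mesenchyme already described, so most of this value repeats it. The remaining 401 and 296 cells held 235 CPM (216 to 255) and 310.4 CPM (286 to 336), with collagen UMIs at 424 and 511 CPM. The 42 and 20 cells with markers of several classes held 191 CPM (163 to 224) and 356 CPM (291 to 432), at a median of 20202.5 and 12526.5 UMIs per cell.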

How the results depend on the processing

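No paired analysis was possible because each group has 1 library. No alternative reversed a direction that had been called, and 212 of 252 checks of the main results and 683 of 693 checks of single genes stayed within the set limits. The exceptions follow, control before knockout-labelled where both are given.

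Lower gates (2 marker, 10 collagen UMIs) gave 5.24 and 7.86 CPM in epithelium and summed mesenchyme over epithelium log2 differences of 5.06 and 4.83. Higher gates (5 and 40) gave 379.6 CPM in knockout-labelled mesenchyme, 1 gene past 1.5-fold between libraries there, 172 CPM in control neural cells and 2 genes 4-fold over epithelium in the knockout-labelled library. Allowing 0 UMIs of other lists gave 4.02 and 8.44 CPM in epithelium and a control log2 difference of 5.24, and no limit gave 12.9 CPM in control epithelium.

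Totals without haemoglobin, mitochondrial and ribosomal genes gave 509 and 542 CPM in mesenchyme with 2 genes past 1.5-fold, 753 and 769 in mesothelium, 15.1 and 18.4 in epithelium, 166 and 233 in endothelium, and 165 and 203 in neural cells. Means of single-cell CPM gave 1 gene past 1.5-fold and 9.03 CPM in knockout-labelled epithelium. Thinning gave 1 gene past 1.5-fold, 7.82 and 8.37 CPM in epithelium, 173 in control endothelium, a knockout-labelled log2 difference over epithelium of 4.78 and 6 genes 4-fold over it. A pseudocount of 1 gave 2 genes past 1.5-fold in mesenchyme and log2 differences over epithelium of 4.97 and 4.82. A pseudocount of 20 gave 3.58 and 3.57 with 0 and 0 genes 4-fold over epithelium, and a minimum of 100 UMIs left 5 and 3.

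The Hoxb6 difference between libraries in mesenchyme ranged from -0.75 to -0.35 on the log2 scale over the alternatives, Hoxa7 in mesothelium from -0.81 to -0.46, and Hoxb8 there from 0.54 to 1.24. The summed difference between libraries ranged from -0.09 to 0.69 in endothelium and from -0.29 to 0.40 in neural cells. Depth limits both, at 27 to 42 cells per library.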

Other observations

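Retinoic acid is a known upstream signal of Hox genes in the trunk. Aldh1a2, the enzyme that makes it in the embryo, stood at 196 CPM in control and 117 CPM in knockout-labelled mesothelium, against 7.31 and 8.15 in mesenchyme and 0.735 and 0.289 in epithelium. It was the 1 of 4 retinoid genes past 1.5-fold between the libraries in mesothelium, where 4.76% of all genes were lower by that rule. The receptor gene Rarb stood at 35.7 and 21.7 CPM in mesenchyme, where it was the 1 of 5 past 1.5-fold, against 4.78% of all genes, and at 47.4 and 36.9 in mesothelium. In wider mesenchyme 0 of 6 were past it, against 1.32% of all genes. Rarb was lower there too, at 27.4 and 17.5 CPM (log2 -0.52), short of the limit on this scale.

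Of 8 genes for chromatin and nuclear regulators of Hox genes (Gmnn, Kmt2a, Men1, Ezh2, Eed, Suz12, Cbx2 and Bmi1), 0 were past 1.5-fold between the libraries in mesenchyme, mesothelium or epithelium, where 4.78%, 8.67% and 2.23% of all genes were, shares at which few or none of 8 would be counted. Ezh2, the Polycomb methyltransferase, stood at 153 and 169.6 CPM in mesenchyme, and Kmt2a, which acts in a COMPASS-type complex, at 44.1 and 39.2.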
